A study of Mus musculus with 15 samples.

Results

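The 10 genes described here are readouts and feedback regulators of FGF and EGF signalling, the growth factor pathways that keep neural progenitor cells dividing in culture. They are the Sprouty genes Spry1, Spry2 and Spry4, the Spred genes Spred1 and Spred2, the phosphatase genes Dusp4 and Dusp6, the transcription factor genes Etv4 and Etv5, and the EGF receptor gene Egfr. They were listed by name as genes of this pathway, with earlier results of these data known, and they are 10 of the 34910 genes in the summed count table. All 10 passed the filter on low counts, which kept 15141 genes.

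FGF2 and EGF bind receptor tyrosine kinases at the cell surface and switch on the Ras and ERK kinase cascade. Active ERK then induces genes whose products damp the same cascade. Sprouty and Spred proteins act upstream of or on Ras and Raf, and the phosphatases encoded by Dusp4 and Dusp6 remove the activating phosphates from ERK and related kinases. Etv4 and Etv5 are ETS transcription factors whose genes are induced by FGF signalling and repressed by Capicua, an HMG-box repressor that ERK inactivates. The RNA levels of these genes are therefore widely used as readouts of the pathway.

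RNA was measured in 15 libraries of wild type mouse neural progenitor cells, 3 in each of 5 groups. All groups were grown with FGF2, EGF and heparin, received plasmids that carry an shRNA and EGFP, and were sorted for GFP 3 days later. The groups are shLINE_Orf1+LINE-1, in which a full-length LINE-1 retrotransposon was added to the shRNA of shLINE_Orf1, then shLINE_MdV_I, shLINE_Orf2 and shLINE_Orf1, each with an shRNA only, and shControl with a control shRNA. Per the design text the shRNAs were directed at young and old LINE-1 elements, and the added LINE-1 was paired with an shRNA against young ones. The labels do not state which age shLINE_MdV_I and shLINE_Orf2 target, which promoter drives the shRNA or the LINE-1, or whether replicates are separate cultures, so p-values measure the spread between these libraries, which may be technical.

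Libraries held 39204327 to 51070601 gene counts, and expression is given as CPM after TMM scaling of the library sizes unless a sentence says otherwise. The progenitor markers summed to 8220 to 11800 CPM in every library, with Fabp7 the highest at a mean of 3780 CPM. The 8 microglial markers summed to 0.852 to 2.51 CPM, with C1qa, C1qb and Aif1 at 0 in all 15 and P2ry12 (mean 0.885 CPM), Csf1r (0.373) and Ptprc (0.119) above 0 in all 15. Markers of other cells lay between, at 335 to 521 CPM for neurons (Map2 mean 391), 285 to 392 for astrocytes (Aldh1l1 256) and 109 to 154 for the oligodendrocyte lineage (Cnp 108). Those of endothelial cells summed to 22.6 to 49.1 CPM (Pecam1 33) and those of mural cells and fibroblasts to 9.02 to 13.8 CPM (Acta2 10.7). Of the marker genes of progenitors, neurons, glia and other cell classes, 1 was called in the comparisons with shControl, the synaptic gene Snap25, at 7.76 ± 0.12 CPM in shLINE_MdV_I and 4.37 ± 0.26 CPM in shControl (SD, n = 3 each). The extent of knockdown was not measured, because LINE-1 and plasmid RNA were not analysed here. 1 library stood apart from all others and another less so. shLINE_Orf1 replicate 1 lay at 75.9 and shControl replicate 2 at 24.3 on the first principal component (23.9% of the variance), against -18.8 to 4.72 for the other 13. Mitochondrially encoded genes took 3.61% and 2.02% of their counts, against 1.36% to 1.97% elsewhere. Both were known from earlier results of these data to stand apart, and values without 1 or both of them are given beside many of the results they move.

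In shControl cells Dusp6 was the most abundant of the 10 genes per transcript length, and Spred2 and Dusp4 were the least abundant. On a scale of expected counts per kilobase of annotated transcript, set to the same total in every library as for TPM values, Dusp6 was at 328 ± 59.7, Spry1 at 212 ± 34.9 and Etv5 at 206 ± 54.8 (mean ± SD, n = 3, as for the other genes on this scale). Spry4 followed at 88.3 ± 27.9, Etv4 at 69.3 ± 6.93, Spred1 at 65.9 ± 22.1, Egfr at 58.9 ± 16.1 and Spry2 at 40.6 ± 6.91. Dusp4 was at 19.0 ± 3.65 and Spred2 at 16.6 ± 2.36. Between neighbours in this order, libraries did not overlap from Dusp6 to Spry1, from Etv5 to Spry4 and from Spry2 to Dusp4. All other neighbours overlapped, Spry1 with Etv5, each gene from Spry4 to Spry2 with the next, and Dusp4 with Spred2. Among the 5 genes from Spry4 to Spry2, Spry4 (lowest library 56.2) and Etv4 (61.4) lay wholly above Spry2 (highest library 48.3).

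In GRCm38 with the GENCODE M21 annotation Dusp6 spans chr10:99263231-99267489 on the plus strand, Dusp4 chr8:34807297-34819894 on the plus strand, Egfr chr11:16752203-16918158 on the plus strand, Spry1 chr3:37639947-37644598 on the plus strand and Spry2 chr14:105891947-105896819 on the minus strand. Spred2 (chr11:19924375-20024026, plus strand) and Etv4 (chr11:101769742-101785371, minus strand) lie on the chromosome of Egfr. Spred1 spans chr2:117121374-117182279 on the plus strand and Etv5 chr16:22381309-22439719 on the minus strand. RefSeq promoter windows of GRCm38.p6, from 250 bases before to 50 after the start, were matched by symbol for 7 of the 10 genes, in 8 windows of 32851. The sites searched on both strands were TGAATGAA and TGAATGGA for Capicua (1.3% and 1.21% of all windows), CCGGAAGT for ETS factors (3.89%), TGANTCA for AP-1 (7.81%) and TGACGTCA for CREB (1.79%). None of the 8 windows held any of these letters. The other spellings of the Capicua octamer, TCAATGAA (0.749% of all windows) and TCAATGGA (0.67%), were added after the windows had been seen.

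Spry2 and Dusp6 are the 2 of the 7 genes with such an added match, and the 250 bases before their start are shown for that reason (chr10:99262981-99263230, plus strand, for Dusp6 and chr14:105896820-105897069, minus strand, for Spry2), with the octamer in capitals as it reads on the gene's strand, where it is the reverse complement of the spelling above. In all, 3.84% of windows held 1 of the 4 Capicua spellings. The match of Dusp6 lies at -24 and a second one lies at 2, beyond the bases shown. That of Spry2 lies at -54.
Dusp6: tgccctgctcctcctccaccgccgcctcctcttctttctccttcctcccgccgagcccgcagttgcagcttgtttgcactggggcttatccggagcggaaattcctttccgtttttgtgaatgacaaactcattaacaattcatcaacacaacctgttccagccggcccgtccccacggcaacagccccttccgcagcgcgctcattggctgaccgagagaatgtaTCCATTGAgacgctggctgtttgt
Spry2: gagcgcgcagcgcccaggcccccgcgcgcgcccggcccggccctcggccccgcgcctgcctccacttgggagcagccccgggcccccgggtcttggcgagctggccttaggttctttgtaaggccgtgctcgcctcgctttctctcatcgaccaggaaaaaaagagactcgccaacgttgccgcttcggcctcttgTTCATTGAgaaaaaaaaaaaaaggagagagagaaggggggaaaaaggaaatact
A match of letters is a description, and no binding was measured.

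None of the 10 genes passed the test in any comparison with all 15 libraries in the fit. The quasi-likelihood test of edgeR, adjusted over 15141 genes by the Benjamini-Hochberg method with a threshold of 0.05, called 0 of the 10 in each of the 10 pairwise comparisons of the 5 groups and 0 in the test of any difference among the groups. Over all genes tested the share called was 0.139% for shLINE_Orf1+LINE-1, 0.594% for shLINE_MdV_I, 0.192% for shLINE_Orf2 and 0.178% for shLINE_Orf1 against shControl, 0% for shLINE_Orf1+LINE-1 against shLINE_Orf1, and 0.944% for any difference among the 5 groups. At an unadjusted p under 0.05 the count of the 10 genes was 0 in shLINE_Orf1+LINE-1 (8.76% of all genes), 2 in shLINE_MdV_I (8.63%), 2 in shLINE_Orf2 (7.01%) and 1 in shLINE_Orf1 (10.5%) against shControl, and 1 in shLINE_Orf1+LINE-1 against shLINE_Orf1 (11.1%). DESeq2 called 0 of the 10 in each of these 5 comparisons, where it called 214, 305, 184, 214 and 20 of 15141 genes in the same order. For limma-voom with quality weights the calls were 0 (where it called 540 of 15141 genes), 1 (2.61% of all genes), 2 (2.53%), 2 (4.21%) and 1 (2.64%) in the same order. 2 genes are singled out here after their values were seen. Dusp4 was lower than in every shControl library in 11 of the 12 libraries of the other groups, and Dusp6 was higher in the 3 shLINE_Orf1+LINE-1 libraries than in all 12 others. The share of all genes with either pattern was not counted.

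**Figure D1:**
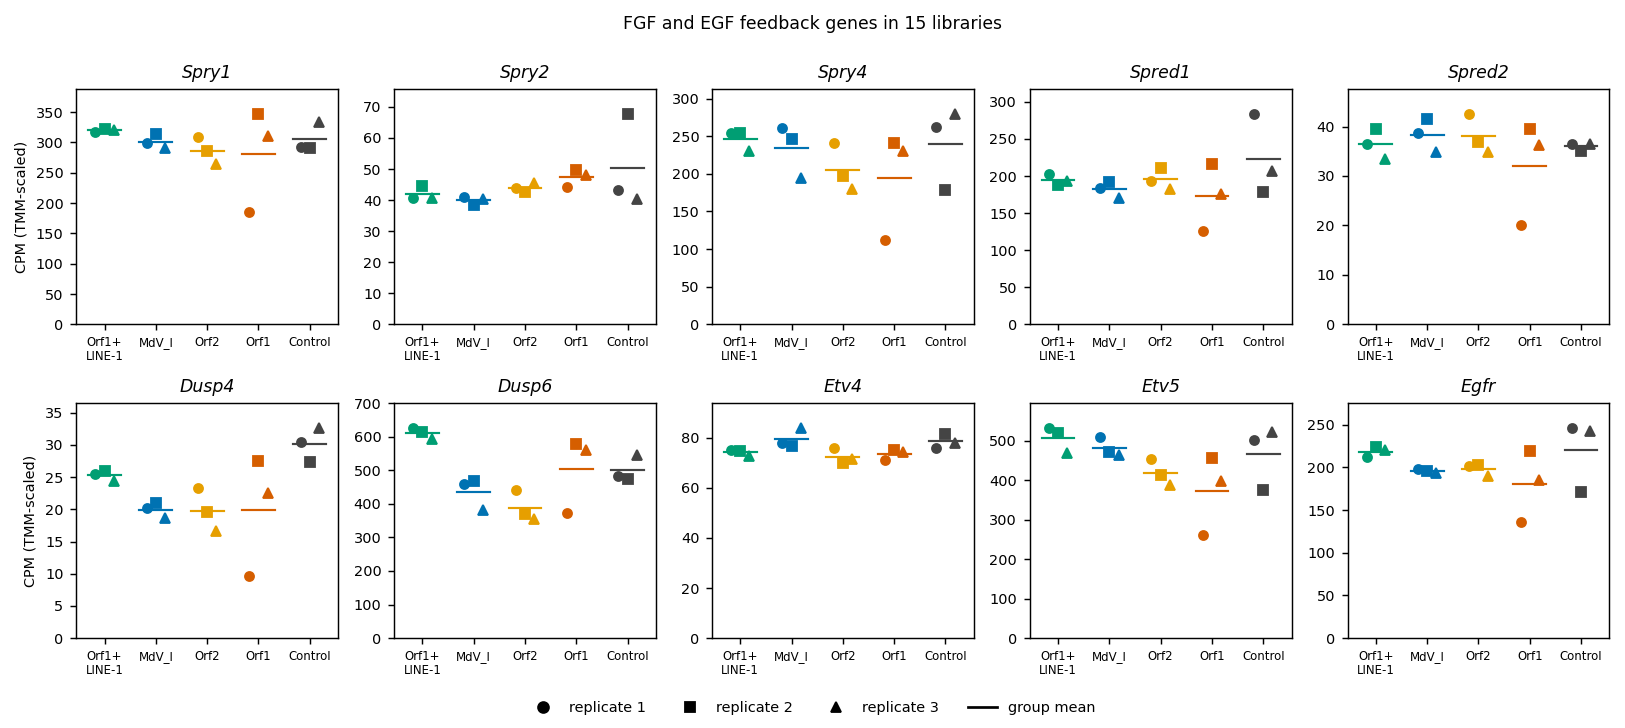
Expression of the 10 genes in CPM (vertical axes, linear, from 0) in each of the 15 libraries, by group, with circles, squares and triangles for replicates 1, 2 and 3 and a line at the group mean. The 3 shLINE_Orf1+LINE-1 libraries lie at 592 to 626 CPM for Dusp6, above all others, and shLINE_Orf1 replicate 1 is the lowest library for 7 of the 10 genes.

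Dusp6 encodes a cytoplasmic phosphatase specific for ERK, and it is a standard readout of FGF signalling. Its level was 626, 614 and 592 CPM in shLINE_Orf1+LINE-1, 460.4, 468 and 381 CPM in shLINE_MdV_I, 442, 369.6 and 355 CPM in shLINE_Orf2, 373, 579 and 561 CPM in shLINE_Orf1, and 483, 475 and 546 CPM in shControl. The 3 shLINE_Orf1+LINE-1 libraries were the highest of the 15, and all libraries of shLINE_MdV_I and shLINE_Orf2 lay below all of shControl. The log2 fold change of shLINE_Orf1+LINE-1 was 0.28 ± 0.15 (SE, 95% interval -0.029 to 0.60) against shControl, with an adjusted p of 0.631. It was 0.28 ± 0.15 against shLINE_Orf1 (adjusted p = 0.422), and 0.099 there without shLINE_Orf1 replicate 1. It was 0.65 ± 0.15 against shLINE_Orf2 (adjusted p = 0.0898) and 0.48 ± 0.15 against shLINE_MdV_I (adjusted p = 0.206). Against shControl it was -0.37 ± 0.15 in shLINE_Orf2 (adjusted p = 0.587) and -0.20 ± 0.15 in shLINE_MdV_I (adjusted p = 0.81). In the test of any difference among the 5 groups Dusp6 had the smallest p of the 10 genes, 0.00586, with an adjusted p of 0.175.

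Without shLINE_Orf1 replicate 1 the difference of Dusp6 between shLINE_Orf1+LINE-1 and the 2 groups below it passed the test, at nearly the same size. It was 0.65 against shLINE_Orf2 (adjusted p = 0.00617, where 1.52% of all genes were called) and 0.48 against shLINE_MdV_I (adjusted p = 0.0199, with 1.94% of all genes called). That library belongs to neither group compared. Leaving it out also changed the number of genes tested to 15444, and what made the difference was not tested. DESeq2 called Dusp6 higher in shLINE_Orf1+LINE-1 than in shLINE_Orf2 with all 15 libraries (adjusted p = 0.00325, with 1.77% of all genes called). So did fits of those 2 groups alone (7.09% of all genes called), with the last number of the library description as a covariate (0.542%), and without both libraries that stood apart (3.69%). Without shControl replicate 2 as well, Dusp6 was called lower in shLINE_Orf2 than in shControl (log2 fold change -0.40, adjusted p = 0.0492, with 1.75% of all genes called) and lower in shLINE_Orf2 than in shLINE_Orf1 (-0.55, adjusted p = 0.0341, with 0.156% called). With all 15 libraries limma-voom called both, at -0.47 (adjusted p = 0.00983, with 2.53% called) and -0.55 (adjusted p = 0.00183, with 5.5% called). Against shControl and against shLINE_Orf1, Dusp6 in shLINE_Orf1+LINE-1 was called under none of the 25 other ways of testing.

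Dusp4 encodes a nuclear phosphatase of ERK and related kinases. Its level was 25.5, 26.0 and 24.4 CPM in shLINE_Orf1+LINE-1, 20.2, 20.97 and 18.6 CPM in shLINE_MdV_I, 23.2, 19.6 and 16.6 CPM in shLINE_Orf2, 9.65, 27.5 and 22.6 CPM in shLINE_Orf1, and 30.5, 27.3 and 32.6 CPM in shControl. Every library of the first 3 groups lay below every shControl library, and shLINE_Orf1 replicate 2 was the single library outside shControl that reached its range. The log2 fold changes against shControl were -0.25 ± 0.25 in shLINE_Orf1+LINE-1 (adjusted p = 0.849), -0.60 ± 0.25 in shLINE_MdV_I (0.501), -0.61 ± 0.25 in shLINE_Orf2 (0.61) and -0.60 ± 0.25 in shLINE_Orf1 (0.437), each p from edgeR with Benjamini-Hochberg adjustment. The 95% intervals of the last 3 lay between -1.14 and -0.062. These 4 comparisons share the shControl libraries. In shLINE_Orf1 the value rests in part on replicate 1, since without it the log2 fold change was -0.27 (adjusted p = 0.692). Without shControl replicate 2 as well it was -0.34 (adjusted p = 0.226 by edgeR). The last number of the library description is 12 for shLINE_Orf1 replicate 1 and for replicates 2 and 3 of shLINE_MdV_I, and 1 elsewhere. With it as a covariate the log2 fold change of shLINE_MdV_I against shControl was -0.11 for Dusp4 and 0.047 for Dusp6. Such a covariate is estimated only within shLINE_Orf1 and shLINE_MdV_I, so these values also draw on shLINE_Orf1 replicate 1. Within shLINE_MdV_I, Dusp4 was at 20.2 CPM with number 1 and at 20.97 and 18.6 CPM with number 12.

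Without shLINE_Orf1 replicate 1, Dusp4 was called lower in shLINE_MdV_I (log2 fold change -0.60, adjusted p = 0.0179, with 1.66% of all genes called) and in shLINE_Orf2 (-0.61, adjusted p = 0.0244, with 0.771% called) than in shControl. Leaving out shControl replicate 2 as well gave -0.66 (adjusted p = 0.00671, with 2.53% called) in shLINE_MdV_I and -0.67 (adjusted p = 0.00675, with 1.75% called) in shLINE_Orf2. limma-voom with quality weights, which gives less weight to libraries that vary more, called Dusp4 lower in 3 groups with all libraries, shLINE_MdV_I (2.61% of all genes called), shLINE_Orf2 (2.53%) and shLINE_Orf1 (4.21%). Per transcript length, on the scale given above, the mean Dusp4 level was 12.98 ± 1.10 in shLINE_MdV_I, 12.6 ± 2.52 in shLINE_Orf2 and 12.02 ± 6.92 in shLINE_Orf1, against 19.0 ± 3.65 in shControl. In bulk RNA of sorted cells, fewer cells that express a gene and less of its RNA per cell cannot be told apart.

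**Figure D2:**
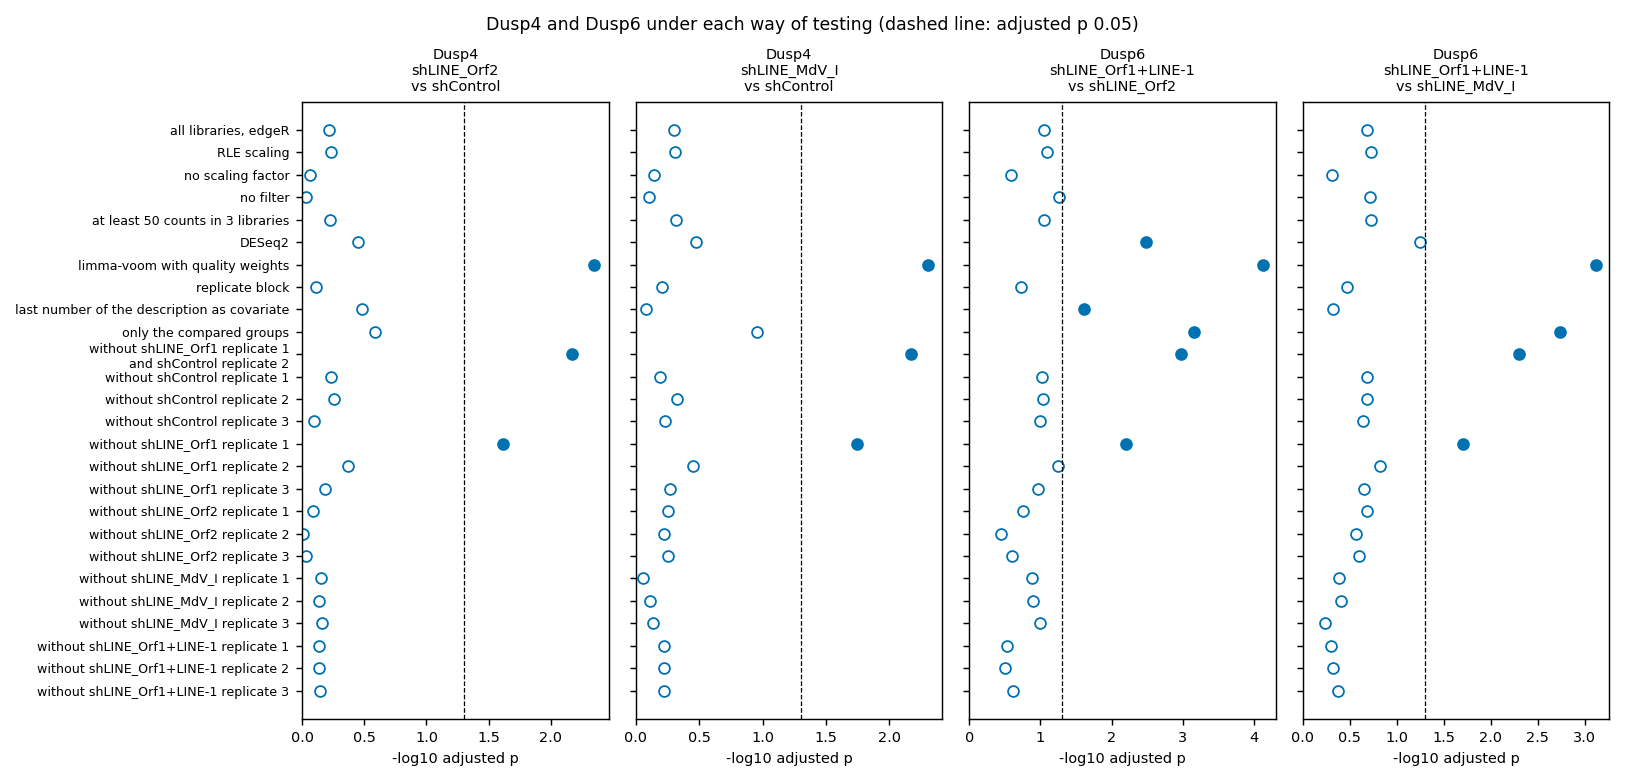
Benjamini-Hochberg adjusted p (horizontal axes, -log10 scale) of Dusp4 in 2 comparisons with shControl and of Dusp6 in shLINE_Orf1+LINE-1 against 2 shRNA groups, under each way of testing (rows), with filled points past the dashed line at 0.05. Leaving out shLINE_Orf1 replicate 1 moves all 4 past the line, and leaving out any other single library moves none of them.

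Egfr encodes the receptor for the EGF in the medium, and its signalling is limited by feedback inhibitors such as the product of Errfi1. Its level was 212, 224 and 220.4 CPM in shLINE_Orf1+LINE-1, 198, 196 and 193 CPM in shLINE_MdV_I, 201.7, 203 and 189 CPM in shLINE_Orf2, 136, 219 and 186 CPM in shLINE_Orf1, and 246, 171 and 243 CPM in shControl. The shControl libraries spanned nearly the whole range of the other groups, because replicate 2 was the second lowest of all 15. The log2 fold changes against shControl were -0.0092 ± 0.15 in shLINE_Orf1+LINE-1, -0.17 ± 0.15 in shLINE_MdV_I, -0.15 ± 0.15 in shLINE_Orf2 and -0.29 ± 0.15 in shLINE_Orf1, with adjusted p from 0.507 to 0.996. The value in shLINE_Orf1 was -0.13 without replicate 1 of that group, and -0.28 without shControl replicate 2 as well. Without shLINE_Orf1 replicate 1 and shControl replicate 2, Egfr was called lower in shLINE_MdV_I (-0.32, adjusted p = 0.0301, with 2.53% of all genes called) and in shLINE_Orf2 (-0.30, adjusted p = 0.0464, with 1.75% called) than in shControl, of which 2 libraries then remained, and it was at -0.15 in shLINE_Orf1+LINE-1. With all 15 libraries limma-voom called Egfr lower in shLINE_Orf1 than in shControl (-0.32, adjusted p = 0.0356, with 4.21% called). A fit by edgeR of only the compared groups called Egfr higher in shLINE_Orf1+LINE-1 than in shLINE_MdV_I (0.16, adjusted p = 0.0441, with 8.21% called).

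The Sprouty genes encode membrane-associated inhibitors of the cascade, and edgeR called none of the 3 with all 15 libraries. Spry1 was the most even of the 3 outside shLINE_Orf1, with 318, 322 and 321 CPM in shLINE_Orf1+LINE-1, 299.6, 313 and 290.4 CPM in shLINE_MdV_I, 309, 286 and 264 CPM in shLINE_Orf2, 186, 346 and 310.0 CPM in shLINE_Orf1, and 293, 290.1 and 333 CPM in shControl. shLINE_Orf1 held both its lowest and its highest library, and all groups overlapped shControl. Its log2 fold changes against shControl ran from -0.12 ± 0.16 in shLINE_Orf1, where it was 0.097 without replicate 1 of that group, to 0.069 ± 0.16 in shLINE_Orf1+LINE-1. The shLINE_Orf1+LINE-1 libraries of Spry1 lay above all of shLINE_MdV_I and shLINE_Orf2. Reads of Spry1 could not be separated from those of Gm42922, an unconfirmed transcript annotated antisense over its exons, since the labels do not state whether strand was kept.

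Spry4 was more variable than Spry1. Its level was 254, 254 and 231 CPM in shLINE_Orf1+LINE-1, 261, 247 and 194 CPM in shLINE_MdV_I, 241, 197 and 179.8 CPM in shLINE_Orf2, 113, 242 and 229.9 CPM in shLINE_Orf1, and 262, 179.1 and 279 CPM in shControl. shLINE_Orf1 replicate 1 was the lowest by far, and every group overlapped shControl. The log2 fold changes of Spry4 against shControl were 0.035 in shLINE_Orf1+LINE-1, -0.037 in shLINE_MdV_I, -0.22 in shLINE_Orf2 and -0.30 in shLINE_Orf1, each ± 0.23. Without both libraries that stood apart they were -0.13, -0.21, -0.40 (adjusted p = 0.108 by edgeR) and -0.20 in the same order. Spry2 was at 40.5, 44.4 and 40.6 CPM in shLINE_Orf1+LINE-1, 41.1, 38.3 and 40.5 CPM in shLINE_MdV_I, 43.9, 42.7 and 45.5 CPM in shLINE_Orf2, 44.2, 49.8 and 48.0 CPM in shLINE_Orf1, and 43.1, 67.6 and 40.3 CPM in shControl. It was the 1 gene of the 10 that was highest in shControl replicate 2. All shLINE_MdV_I libraries of Spry2 lay below those of shLINE_Orf2 and shLINE_Orf1, with log2 fold changes of -0.14 ± 0.15 and -0.24 ± 0.15 (adjusted p = 1 and 0.392 by edgeR). limma-voom called it lower in shLINE_MdV_I than in shLINE_Orf1 (adjusted p = 0.0293, with 11.2% of all genes called). The lower Spry2 level of shLINE_MdV_I (log2 fold change -0.33 ± 0.15, unadjusted p = 0.0405, adjusted p = 0.544) rests on that shControl library, since without it and shLINE_Orf1 replicate 1 the value was -0.060.

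Spred1 and Spred2 encode relatives of Sprouty that bring the Ras inhibitor neurofibromin to the membrane. Spred1 was at 203, 188 and 193 CPM in shLINE_Orf1+LINE-1, 184, 192 and 171 CPM in shLINE_MdV_I, 193, 212 and 182 CPM in shLINE_Orf2, 126, 216 and 176 CPM in shLINE_Orf1, and 283, 179.0 and 207 CPM in shControl. All 4 log2 fold changes against shControl were negative, from -0.37 ± 0.17 in shLINE_Orf1 (adjusted p = 0.475) to -0.19 ± 0.17 in shLINE_Orf2 (adjusted p = 0.987), and shControl replicate 1 was the highest of the 15 libraries. The Spred1 value in shLINE_Orf1 was -0.19 without replicate 1 of that group. Without shControl replicate 2 as well it was -0.32, with -0.32 in shLINE_Orf2 and -0.33 in shLINE_Orf1+LINE-1. In shLINE_MdV_I it was then -0.42 (adjusted p = 0.0609 by edgeR), against -0.29 with all libraries. Spred2 was at 36.5, 39.5 and 33.4 CPM in shLINE_Orf1+LINE-1, 38.8, 41.5 and 34.9 CPM in shLINE_MdV_I, 42.5, 36.9 and 34.9 CPM in shLINE_Orf2, 20.0, 39.6 and 36.3 CPM in shLINE_Orf1, and 36.5, 35.1 and 36.4 CPM in shControl. Its 3 shControl libraries were nearly equal, and shLINE_Orf1 replicate 1 was the single library far from them.

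Etv4 and Etv5 encode ETS transcription factors of the PEA3 family and are among the direct outputs of FGF signalling. Etv4 was the most even of the 10 genes, with a coefficient of variation of 4.92% over the 15 libraries and a 1.2-fold distance between the lowest and the highest. It was at 75.0, 74.6 and 72.8 CPM in shLINE_Orf1+LINE-1, 77.8, 76.8 and 83.9 CPM in shLINE_MdV_I, 75.8, 70.1 and 71.6 CPM in shLINE_Orf2, 71.0, 75.0 and 74.4 CPM in shLINE_Orf1, and 76.1, 81.5 and 78.1 CPM in shControl. All libraries of shLINE_Orf1+LINE-1, shLINE_Orf2 and shLINE_Orf1 lay below all of shControl, by little. The log2 fold changes were -0.083 ± 0.078 in shLINE_Orf1+LINE-1, 0.017 ± 0.078 in shLINE_MdV_I, -0.12 ± 0.078 in shLINE_Orf2 and -0.097 ± 0.078 in shLINE_Orf1, with adjusted p from 0.621 to 0.976. The 95% intervals of these 4 values lay between -0.28 and 0.18.

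Etv5 was at 532, 520.1 and 469 CPM in shLINE_Orf1+LINE-1, 511, 471 and 464 CPM in shLINE_MdV_I, 455, 413 and 388 CPM in shLINE_Orf2, 262, 456 and 399 CPM in shLINE_Orf1, and 502, 375 and 523 CPM in shControl. Both libraries that stood apart were the lowest 2 of the 15. shLINE_Orf1+LINE-1 lay above shLINE_Orf1 in every library, with a log2 fold change of 0.44 ± 0.17 (unadjusted p = 0.018, adjusted p = 0.422). That value was 0.25 without shLINE_Orf1 replicate 1. limma-voom called Etv5 there, where it called 2.64% of all genes. Against shControl the values of Etv5 lay between -0.32 ± 0.17 in shLINE_Orf1 and 0.12 ± 0.17 in shLINE_Orf1+LINE-1, with adjusted p from 0.503 to 0.995. In shLINE_Orf1 the value was -0.13 without replicate 1 of that group. Without both libraries that stood apart it was -0.26 in shLINE_Orf1, -0.29 in shLINE_Orf2 and -0.0089 in shLINE_Orf1+LINE-1.

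**Figure D3:**
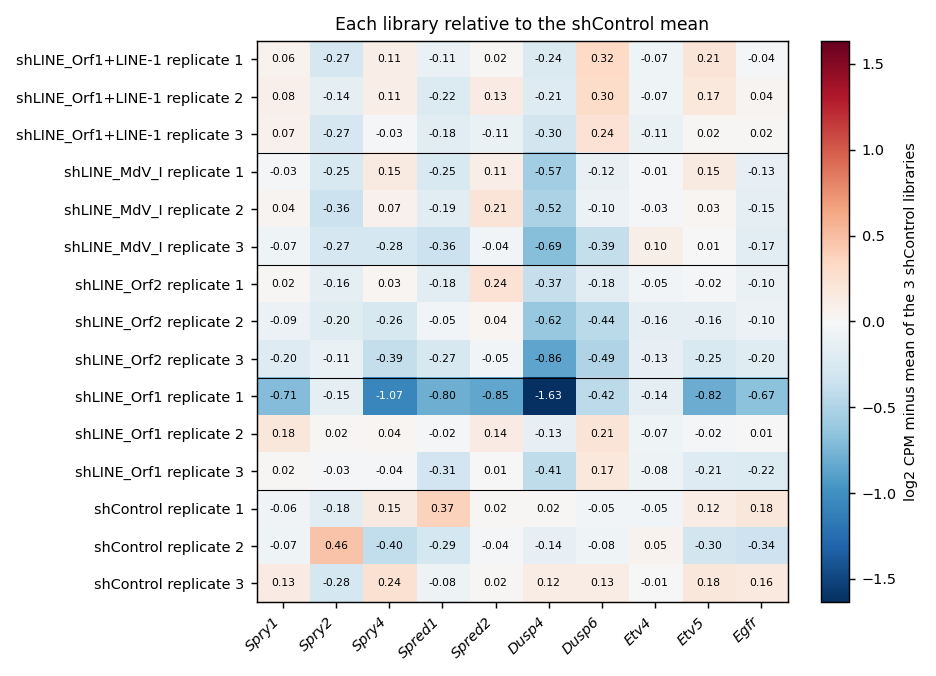
Log2 CPM of each gene (columns) in each library (rows) minus the mean of the 3 shControl libraries, blue for lower and red for higher, with the value in each cell. shLINE_Orf1 replicate 1 is below the shControl mean for all 10 genes, and Dusp4 is negative in all 12 libraries outside shControl.

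The comparison of shLINE_Orf1+LINE-1 with shControl asks how cells with both the shRNA and an added LINE-1 differ from control cells. 5 of the 10 genes had negative and 5 positive log2 fold changes, where 53.7% of all genes tested had negative ones, with a median of 0.0049 against -0.017 over all genes. Dusp6 was higher and did not overlap (9.53% of all genes), and Dusp4 and Etv4 were lower and did not overlap (7.27% of all genes). The comparison with shLINE_Orf1 asks what the added LINE-1 changes in cells with the same shRNA. There 1 of the 10 values was negative, against 50.9% of all genes, with a median of 0.23 against -0.0072 over all genes, and Dusp6 and Etv5 were higher and did not overlap (9.44% of all genes). With shLINE_Orf1 replicate 1 left out, 5 of the 10 values were negative and their median was 0.0030.

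In shLINE_MdV_I against shControl 7 of the 10 values were negative, against 52.4% of all genes, with a median of -0.10 against -0.013 over all genes. Dusp4 and Dusp6 were lower and did not overlap (6.65% of all genes). In shLINE_Orf2 against shControl 9 of the 10 values were negative, against 52.3% of all genes, with a median of -0.17 against -0.010 over all genes. Dusp4, Dusp6 and Etv4 were lower there and did not overlap (5.12% of all genes). In shLINE_Orf1 against shControl 9 of the 10 were negative, against 51.4% of all genes, with a median of -0.23 against -0.0085 over all genes, and Etv4 was lower and did not overlap (4.4% of all genes). Leaving out shLINE_Orf1 replicate 1 gave 7 negative values of 10 and a median of -0.063 in shLINE_Orf1. Leaving out shControl replicate 2 as well gave 6 negative values and a median of -0.13 there, 8 and -0.30 in shLINE_Orf2, and 8 and -0.15 in shLINE_MdV_I. That library lay below the shControl mean for 8 of the 10 genes. Leaving it out raises the shControl mean of those genes and so lowers their values against shControl. In shLINE_Orf1 replicate 1, 8 of the 10 genes were more than 0.4 below the shControl mean on the log2 scale. So were 28.3% of all genes tested in that library, against 4.87% to 11.3% of all genes in each of the other 14 libraries. The part that its share of counts from mitochondrially encoded genes had in these values was not tested.

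**Figure D4:**
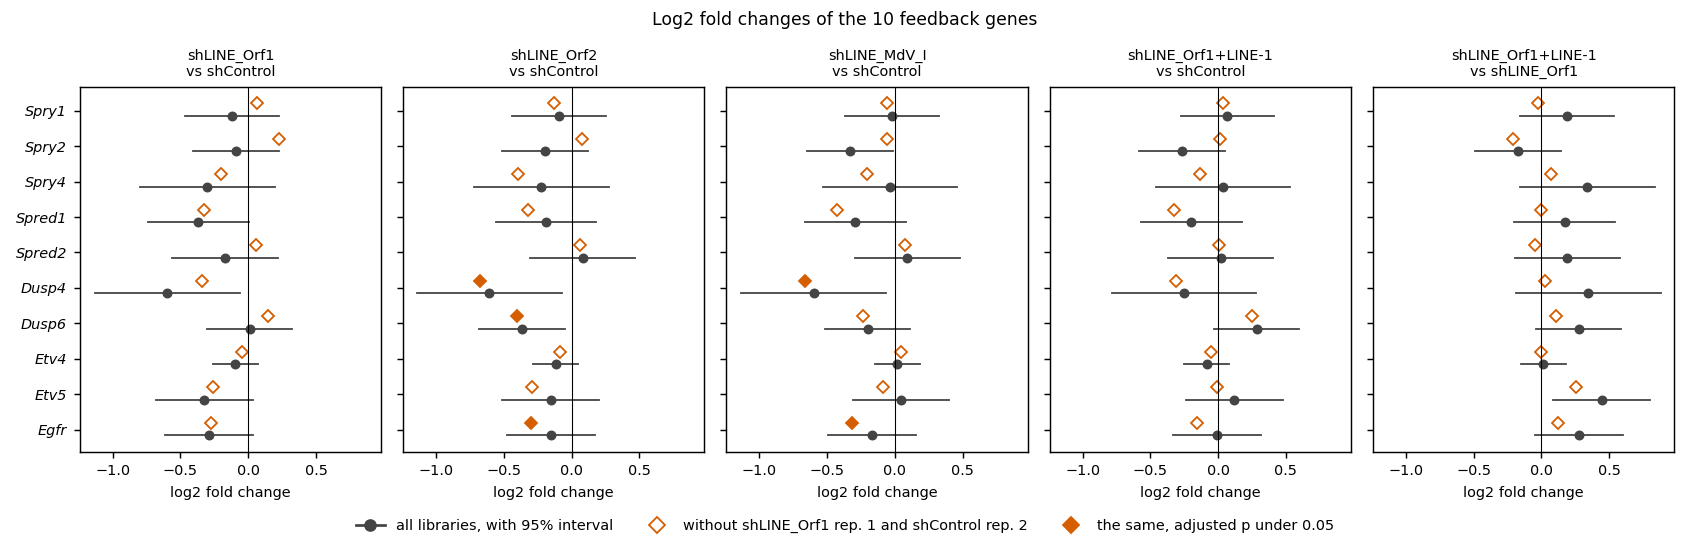
Log2 fold changes of the 10 genes (rows) in the 5 main comparisons, with grey points and 95% intervals for all 15 libraries and diamonds for the fit without shLINE_Orf1 replicate 1 and shControl replicate 2, filled where the adjusted p is under 0.05. The filled diamonds are Dusp4, Dusp6 and Egfr in shLINE_Orf2 and Dusp4 and Egfr in shLINE_MdV_I, all lower than in shControl. shControl replicate 2 lay below the shControl mean for 8 of the 10 genes, so leaving it out raises that mean for them.

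The comparisons between shRNA groups not given so far called 0 of the 10 genes by edgeR with all libraries, where 0% of all genes were called for shLINE_Orf2 against shLINE_Orf1, 0.687% for shLINE_MdV_I against shLINE_Orf1, 0.112% for shLINE_MdV_I against shLINE_Orf2, 0.238% for shLINE_Orf1+LINE-1 against shLINE_Orf2 and 0.68% for shLINE_Orf1+LINE-1 against shLINE_MdV_I. The count of the 10 at an unadjusted p under 0.05 was 1 (11.4% of all genes), 1 (16.4%), 0 (5.45%), 1 (9%) and 1 (8.5%) in the same order. limma-voom called 1 (5.5% of all genes), 3 (11.2%), 0 (521 of 15141 genes), 3 (10.2%) and 2 (11%) of the 10, and Dusp6 was among the genes it called in each of the 4 comparisons with a call. Libraries of the compared groups did not overlap for several of the 10. Spry1, Dusp4, Dusp6, Etv5 and Egfr were higher in shLINE_Orf1+LINE-1 than in shLINE_Orf2 (13.5% of all genes), and Spry1, Dusp4, Dusp6 and Egfr were higher (13.7%) and Etv4 lower (13.4%) in shLINE_Orf1+LINE-1 than in shLINE_MdV_I. Etv4 and Etv5 were higher and Spry2 lower in shLINE_MdV_I than in shLINE_Orf2 (8.96% higher and 8.54% lower of all genes) and than in shLINE_Orf1 (9.56% and 9.64%).

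Around the 10 genes, 100 other genes of the same pathway were listed by role and 95 of them were tested. edgeR called 1 of the 95 higher and 0 lower in shLINE_MdV_I against shControl (0.594% of all genes), and 0 in the other 3 comparisons with shControl and in shLINE_Orf1+LINE-1 against shLINE_Orf1. The gene called was Fosl1, an AP-1 transcription factor subunit induced by ERK, at 3.08 ± 0.10 CPM in shLINE_MdV_I and 1.52 ± 0.18 CPM in shControl (SD, n = 3 each). The log2 fold change of Fosl1 was 1.02 ± 0.22 (adjusted p = 0.046), and it passed in 10 of the 25 other ways of testing, with adjusted p of up to 0.17. At an unadjusted p under 0.05 the count of the 95 was 9 in shLINE_Orf1+LINE-1 (8.76% of all genes), 11 in shLINE_MdV_I (8.63%), 8 in shLINE_Orf2 (7.01%) and 11 in shLINE_Orf1 (10.5%). Median log2 fold changes of the 95 lay between -0.077 in shLINE_Orf1 and 0.020 in shLINE_MdV_I.

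Of the 15 ligand genes, 12 were tested, and the smallest p belonged to Fgf1, an FGF that binds all FGF receptors, in shLINE_Orf2, at 35.2 ± 4.97 CPM against 53.2 ± 9.31 CPM in shControl (log2 fold change -0.60 ± 0.13, adjusted p = 0.107). Among 7 receptor genes tested of 8 it was Fgfrl1, a receptor without a kinase domain, in shLINE_Orf2 (-0.27 ± 0.11, adjusted p = 0.616). Of the 12 adaptor genes it was Sos1, which loads Ras with GTP, in shLINE_Orf1 (-0.61 ± 0.23, adjusted p = 0.4). Of the 16 genes of the Ras and ERK cascade it was Rps6ka2, a kinase activated by ERK, in shLINE_Orf1 (-0.53 ± 0.16, adjusted p = 0.277). Of 14 other inhibitors tested it was Dusp10, a phosphatase of stress-activated kinases, in shLINE_MdV_I (0.38 ± 0.12, adjusted p = 0.225), and of 15 heparan sulfate genes Sulf1, which removes sulfate from the sugar chains that hold FGFs, in shLINE_MdV_I (1.37 ± 0.33, adjusted p = 0.0754). None of these 6 genes passed the edgeR test with all 15 libraries. Of 25 other ways of testing, Fgf1 passed in 4, Sulf1 in 5, Sos1 in 1 (adjusted p = 0.0387), Rps6ka2 in 1 (adjusted p = 0.00974) and Fgfrl1 and Dusp10 in 0. The Sos1 value was -0.36 without shLINE_Orf1 replicate 1 and -0.40 without shControl replicate 1.

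The 10 genes have 37 annotated transcripts in the table, and 7 genes have more than 1. Shares of a gene's expected count are the authors' estimates over transcripts that overlap, so they are less certain than the gene's sum. Egfr-202, annotated at 2943 bases against 10208 bases for Egfr-201, held 16.0%, 15.8% and 16.4% of the Egfr count in shLINE_Orf1+LINE-1, 17.8%, 17.5% and 15.6% in shLINE_MdV_I, 14.5%, 15.6% and 15.1% in shLINE_Orf2, 28.4%, 16.4% and 18.8% in shLINE_Orf1, and 17.5%, 21.3% and 21.03% in shControl. Its share was highest in shLINE_Orf1 replicate 1, and all libraries of shLINE_Orf1+LINE-1 and shLINE_Orf2 lay below those of shControl. How many of all transcripts separate the groups in this way was not counted, so this is a description of 1 transcript. Spred2-201, the shorter of the 2 main Spred2 transcripts, held 36.2% ± 3.63 in shLINE_Orf1+LINE-1, 37.5% ± 1.38 in shLINE_MdV_I, 35.5% ± 1.70 in shLINE_Orf2, 39.8% ± 5.19 in shLINE_Orf1 and 33.0% ± 1.68 in shControl (SD, n = 3 each). Etv4-202 held between 30.7% and 67.8% over the 15 libraries although the Etv4 sum was even, and its groups overlapped throughout. No test was made on these shares.

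**Figure D5:**
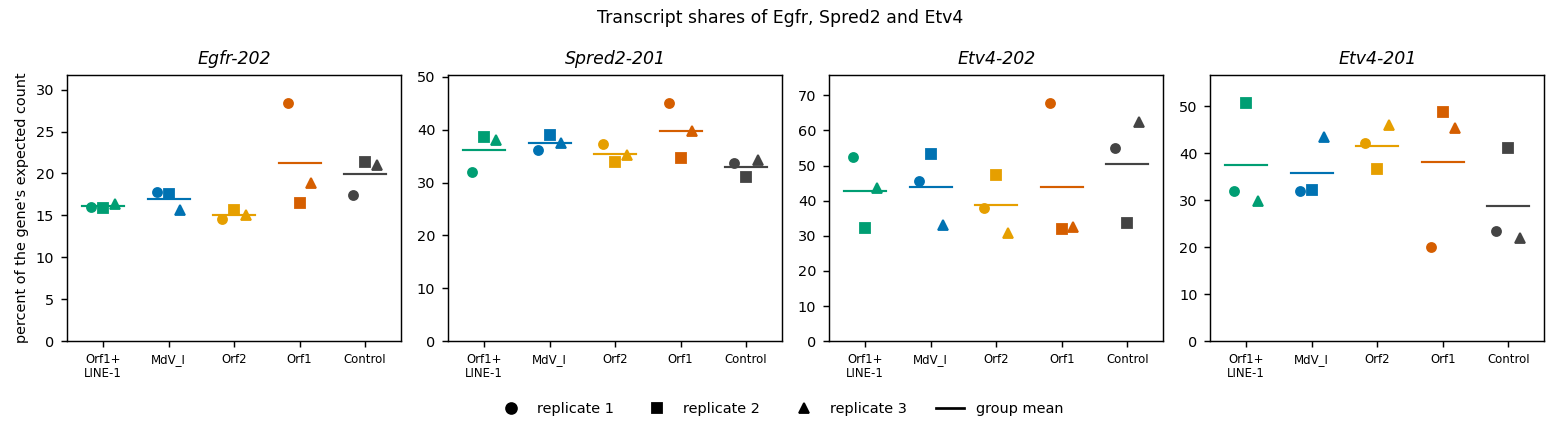
Share of the gene's expected count held by 4 transcripts of Egfr, Spred2 and Etv4 (vertical axes in percent, from 0) in each library, by group, with a symbol for each replicate and a line at the group mean. Egfr-202 reaches 28.4% in shLINE_Orf1 replicate 1 and 14.5% to 21.3% elsewhere, and the 2 Etv4 transcripts vary within every group.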

How the data were processed

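Groups and replicate numbers came from the sample titles. The main table holds expected counts (estimated counts of reads) per transcript, deposited by the authors with no normalization. Per the submitters' processing notes cutadapt, RSEM and mm10 were used, with no role or version given. Of 111462 transcripts, 110115 have a gene in GENCODE M21 and were summed to 34910 genes and rounded. The 1347 without a match (0.595% to 0.65% of the counts of a library) and 1 blank row were not used. Per the file headers, the authors' second table gives an estimate with its error, whose scale has no name, a t score and p-values.

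Genes were filtered with filterByExpr of edgeR at a minimum count of 10 and scaled with TMM. 1 model of 5 groups was fitted to 15 libraries with edgeR's robust quasi-likelihood method, so that groups share 1 estimate of the spread (common biological coefficient of variation 0.158), with Benjamini-Hochberg adjustment across the 15141 genes tested. A prior count of 2 was used for log2 CPM. The method was tested on simulated data. The members and lists were chosen with earlier results of these data known. The text names all 10 members, every pathway gene called, the gene with the smallest p of each pathway list and the 5 genes most like the members.

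The alternatives were RLE scaling, no scaling factor, no filter, at least 50 counts in 3 libraries, DESeq2, limma-voom with quality weights, a replicate block, a covariate for the number that ends each library description (1 or 12), only the compared groups, leaving out each library, and leaving out both libraries that stood apart. The motif spellings and the alternatives for Dusp6 between shRNA groups were added after seeing the data. edgeR 4.0.16, DESeq2 1.42.0 and limma 3.58.1 were run in R 4.3.3, and pandas 2.3.3, numpy 2.4.6 and matplotlib 3.10.9 under Python 3.11.15.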

Additional observations from a re-analysis of the deposited data

How the results depend on the processing

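The call of 0 of the 10 members by edgeR with all libraries was kept in every comparison under RLE scaling, no scaling factor, both other filters and the replicate block. Those settings called 0 to 190 genes in a comparison. The call of 0 members changed under the following alternatives. limma-voom with quality weights called 2 members in shLINE_Orf1 and 2 in shLINE_Orf2 and 1 in shLINE_MdV_I against shControl, 1 in shLINE_Orf1+LINE-1 and 1 in shLINE_Orf2 and 3 in shLINE_MdV_I against shLINE_Orf1, 3 in shLINE_Orf1+LINE-1 against shLINE_Orf2, 2 in shLINE_Orf1+LINE-1 against shLINE_MdV_I and 3 in the test of any difference, where it called 2.53% to 11.2% of all genes. DESeq2 called 1 in shLINE_Orf1+LINE-1 against shLINE_Orf2 (1.77% of all genes) and 1 in the test of any difference (6.04%). The covariate of the last description number called 1 in shLINE_MdV_I against shLINE_Orf1 (13.6% of all genes) and 1 in shLINE_Orf1+LINE-1 against shLINE_Orf2 (0.542%), and fits of only the compared groups called 2 in shLINE_Orf1+LINE-1 against shLINE_Orf2 (7.09%) and 3 against shLINE_MdV_I (8.21%). Without shLINE_Orf1 replicate 1 and shControl replicate 2 together, 3 were called in shLINE_Orf2 and 2 in shLINE_MdV_I against shControl, 1 in shLINE_Orf2 against shLINE_Orf1, 1 in shLINE_Orf1+LINE-1 against each of shLINE_Orf2 and shLINE_MdV_I, and 3 in the test of any difference (0.156% to 6.04% of all genes). Leaving out 1 library gave between 0 and 1 member in shLINE_Orf2 and shLINE_MdV_I against shControl and in shLINE_Orf1+LINE-1 against shLINE_Orf2 and against shLINE_MdV_I, and between 0 and 2 in the test of any difference, and the library whose loss made these calls was shLINE_Orf1 replicate 1 (0.771% to 2.35% of all genes called without it). The causes were not tested.

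Several log2 fold changes changed sign, and none of those named in this and the next paragraph was called by the main edgeR fit of all 15 libraries. The last description number is 12 for shLINE_Orf1 replicate 1 and for replicates 2 and 3 of shLINE_MdV_I and 1 elsewhere. With it as a covariate, shLINE_MdV_I against shControl was 0.26 for Spry1, 0.41 for Spry4, 0.047 for Dusp6 (-0.20 without the covariate) and 0.037 for Egfr (-0.17). Dusp4 kept its sign there, at -0.11. Such a covariate is estimated only within shLINE_Orf1 and shLINE_MdV_I, so these values also draw on shLINE_Orf1 replicate 1. Under limma-voom Etv5 was -0.070 in shLINE_MdV_I, Spry2 was 0.18 in shLINE_Orf1 and 0.036 in shLINE_Orf2 (-0.19 by edgeR), and Spry1 was -0.011 and Spry4 -0.11 in shLINE_Orf1+LINE-1 against shControl, and Etv4 was -0.0040 in shLINE_Orf1+LINE-1 against shLINE_Orf1. With no scaling factor Spry1 was 0.013 in shLINE_MdV_I and Dusp6 -0.041 in shLINE_Orf1 against shControl. Without both libraries that stood apart, the values against shControl were -0.087 for Etv5 in shLINE_MdV_I, 0.063 for Spry1, 0.22 for Spry2 and 0.054 for Spred2 in shLINE_Orf1, 0.078 for Spry2 in shLINE_Orf2, and 0.011 for Spry2 (-0.27 with all libraries), -0.13 for Spry4 and -0.0089 for Etv5 in shLINE_Orf1+LINE-1. Those of shLINE_Orf1+LINE-1 against shLINE_Orf1 were -0.025 for Spry1, -0.0019 for Spred1, -0.046 for Spred2 and -0.0006 for Etv4.

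When 1 library at a time was left out, values against shControl ran, in shLINE_MdV_I, from -0.057 to 0.061 for Spry1, from -0.21 to 0.10 for Spry4, from -0.017 to 0.059 for Etv4 and from -0.089 to 0.15 for Etv5. In shLINE_Orf1 they ran from -0.29 to 0.097 for Spry1, from -0.22 to 0.18 for Spry2, from -0.34 to 0.069 for Spred2 and from -0.090 to 0.18 for Dusp6, and in shLINE_Orf2 from -0.32 to 0.078 for Spry2 and from -0.33 to 0.023 for Spred1. In shLINE_Orf1+LINE-1 they ran from -0.39 to 0.0050 for Spry2, from -0.14 to 0.17 for Spry4, from -0.33 to 0.020 for Spred1, from -0.033 to 0.088 for Spred2, from -0.015 to 0.22 for Etv5 and from -0.16 to 0.087 for Egfr. Against shLINE_Orf1 they ran from -0.034 to 0.37 for Spry1, from -0.011 to 0.36 for Spred1, from -0.056 to 0.37 for Spred2 and from -0.0095 to 0.030 for Etv4. The sign of Dusp4 was negative in all 4 comparisons with shControl under all 25 alternatives.

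Deviations from the group means correlated over 0.1 in 3 of 30 same-number pairs, with a median r of -0.022, against 0.007 in different-number pairs. These values cannot tell whether libraries with the same replicate number were paired, and the labels do not state it. With the replicate number as a block 0 members were called in every comparison, where 0 to 69 of 15141 genes were called. The lowest count of a member in any library was 381, for Dusp4.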

Other observations

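The genes whose log2 CPM over the 15 libraries was most like the mean standardized level of the 10 members were App (Pearson r = 0.972), the amyloid precursor gene, Jag1 (0.961), a Notch ligand, Ltbp1 (0.957), Ptprj (0.956), a receptor phosphatase, and Gnao1 (0.954). Over the 13 libraries without shLINE_Orf1 replicate 1 and shControl replicate 2 the values were 0.898, 0.837, 0.897, 0.864 and 0.817. These are descriptions, since the genes were picked for their likeness and all values share the same libraries. Among the 45 pairs of members the median r was 0.659 over 15 libraries and 0.248 over the 13, so the likeness of the members to each other was lower without those 2 libraries.

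The authors' deposited table is named for the effect of young LINE-1 in a mixed model. For its group term it lists a positive estimate for all 10 members, as for 60.9% of its 17921 genes. Of the 10, the authors' deposited table gives 0 with a p under 0.05, against 2.66% of all genes, and every adjusted p there was 1. The smallest p of the members in the authors' deposited table were 0.0578 for Dusp4 (estimate 0.487, standard error 0.234) and 0.0752 for Egfr (estimate 0.709, standard error 0.367). The sources used here give neither the samples behind that term nor its scale.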
